A study of Zea mays with 2182 samples.

Results

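The plastid-encoded photosystem genes examined here are psbA, psbB, psbC, psbH and psaC. They are the 5 rows, of 22173 in the table, whose names are psa or psb followed by a capital letter. RefSeq lists 20 such genes on the maize plastid genome, and the other 15 were not analysed here. The samples were single cells from anthers, the male floral organs, of the fertile maize inbred line W23, grown untreated in a greenhouse and dissected at 11 lengths from 0.5 to 3.0 mm. Fixed and digested anthers were sorted into single cells, and captured transcripts were counted by CEL-Seq2, which primes on poly(A) tails and gives each molecule a unique molecular identifier (UMI). Every stage was taken from 2 or more plants, but the plant behind a cell is not given, so no comparison had plants as replicates. The cell layer is not given either, and the cell groups below were formed from 2 nuclear transcripts.

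Photosystem II splits water and passes electrons into the photosynthetic chain, and photosystem I hands them on to ferredoxin. Each complex combines core subunits made inside the plastid with antenna and peripheral subunits encoded in the nucleus. In maize anthers the endothecium, the wall layer under the epidermis, is known to contain chloroplasts.

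Of the 2182 cells, 1658 had at least 500 UMIs and were analysed. They held 17587 UMIs of the 5 genes, with 12289 of psbC, 2158 of psbH, 1689 of psbB, 1018 of psbA and 433 of psaC. Summed UMIs of all genes ran from 132940 at 3.0 mm to 1496508 at 2.0 mm. Each title opens with a date or a word, which defines 6 sets. A set, a number and a length make a pool, and 45 pools had at least 8 analysed cells. Sets MiSeq and Pilot were from 2.0 mm anthers only, and that length gave 48.6% of the UMIs of the 5 genes and 38.1% of all UMIs. All 96 well numbers recurred in 2 or more pools. Clusters were called recurring if their cells shared well numbers between pools at over 2 times the expected rate, in at least 20 pairs. This held for 2 of 17 clusters, with 12.8% of the cells. The 5 genes together stood at 2325 CPM there (their UMIs scaled to a common library total), against 4842 CPM in the remaining cells. The edgeR fits below were also run without those clusters and without sets MiSeq and Pilot, but the shares, pool ranges and likeness of genes were not.

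The first comparison was of all cells over anther length, with the cells of each length summed to 1 sample. All 5 genes rose with length. Their summed level was 1106 CPM at 0.5 mm (95% Poisson interval 1008 to 1212, counting error only), 3745 CPM at 1.75 mm and 8229 CPM at 3.0 mm (7749 to 8732). It averaged 6780 ± 1393 CPM over the 3 longest lengths and 1886 ± 681 CPM over the 3 shortest (SD, n = 3 lengths each). In sums over cells, fewer cells with these transcripts and fewer transcripts per cell cannot be told apart. With cells thinned to equal depth, 38.2% of them had a UMI of the 5 genes at 0.5 mm and 51.1% at 0.75 mm. That share lay at 57.5 to 67.4% from 1.0 to 2.75 mm and was 74.2% at 3.0 mm. The summed level was 2361 CPM at 1.0 mm and 5451 CPM at 2.75 mm. Such a share also depends on the transcripts per cell, and the part of each was not tested.

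psbA encodes D1, the reaction centre protein of photosystem II that is damaged by light and continually replaced. Its lowest level was 64.9 CPM (at 0.5 mm), its median over the 11 lengths 185.2 CPM and its highest 434.2 CPM (at 2.5 mm). The 3 longest lengths averaged 321.8 ± 126.2 CPM and the 3 shortest 105.3 ± 38.1 CPM. Like that of the sum, its course was uneven, with psbA also at 185.2 CPM at 2.75 mm, below both its neighbouring lengths. The slope was 1.16 log2 units per mm (SE 0.20, adjusted p = 0.000633 by the quasi-likelihood test of edgeR, Benjamini-Hochberg adjusted over all genes tested).

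psbB encodes CP47, an inner antenna protein that binds chlorophyll beside the reaction centre. It was at 40.9 CPM at its lowest (0.5 mm) and 774.8 CPM at its highest (3.0 mm), with a median over the lengths of 235.4 CPM. The 3 longest lengths averaged 665.4 ± 181.8 CPM and the 3 shortest 123.4 ± 74.0 CPM. Its slope was 1.57 (SE 0.23, adjusted p = 0.000179, same edgeR test). Differences between the slopes of the 5 genes were not tested.

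psbC encodes CP43, the second inner antenna protein. It stood at 868.3 CPM at its lowest (0.5 mm), 2739 CPM at the median length and 5988 CPM at its highest (3.0 mm). The 3 longest lengths averaged 4921 ± 953 CPM and the 3 shortest 1447 ± 502 CPM. With the most UMIs of the 5, psbC also had the smallest error: its slope was 1.15 (SE 0.15, adjusted p = 5.34e-05 by the edgeR test).

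psbH encodes a small photosystem II subunit that is phosphorylated in green tissue. Its level was 125.1 CPM at its lowest (0.5 mm), 341.2 CPM at the median length and 992.9 CPM at its highest (3.0 mm), with 740.2 ± 239.9 CPM over the 3 longest lengths and 183.02 ± 79.5 CPM over the 3 shortest. The slope was 1.33 (SE 0.18, adjusted p = 9.34e-05 by edgeR).

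psaC, the photosystem I member, encodes the subunit whose iron-sulfur clusters pass electrons to ferredoxin. It rested on few UMIs: 3 at 0.5 mm, 4 at 1.25 mm and no more than 47 at any length other than 2.0 mm, which had 61.7% of them. Its level was 7.22 CPM at its lowest (0.5 mm, interval 1.49 to 21.1), 70.9 CPM at the median length and 178.4 CPM at its highest (2.0 mm). The 3 longest lengths averaged 131.6 ± 7.4 CPM and the 3 shortest 27.6 ± 17.7 CPM, and the slope was 1.59 (SE 0.27, adjusted p = 0.000515 by edgeR). Without sets MiSeq and Pilot the slope of psaC was 1.58.

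The 5 calls stand against a background in which 16.0% of the 5537 genes tested rose (885 genes) and 785 fell. All 5 slopes lie above the median slope of the tested genes, 0.01. Scaled by library size alone that median was -0.23, with 490 genes up and 1528 down, and the 5 slopes were 0.90 to 1.34 and still passed. The p-values measure the scatter of lengths around a line, since each length is 1 sum. Without the clusters with recurring wells the slopes were 1.24 to 1.64 and all 5 passed. psbB and psaC did not pass under a replicate block of set plus number, which is described with the processing below.

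**Figure D1:**
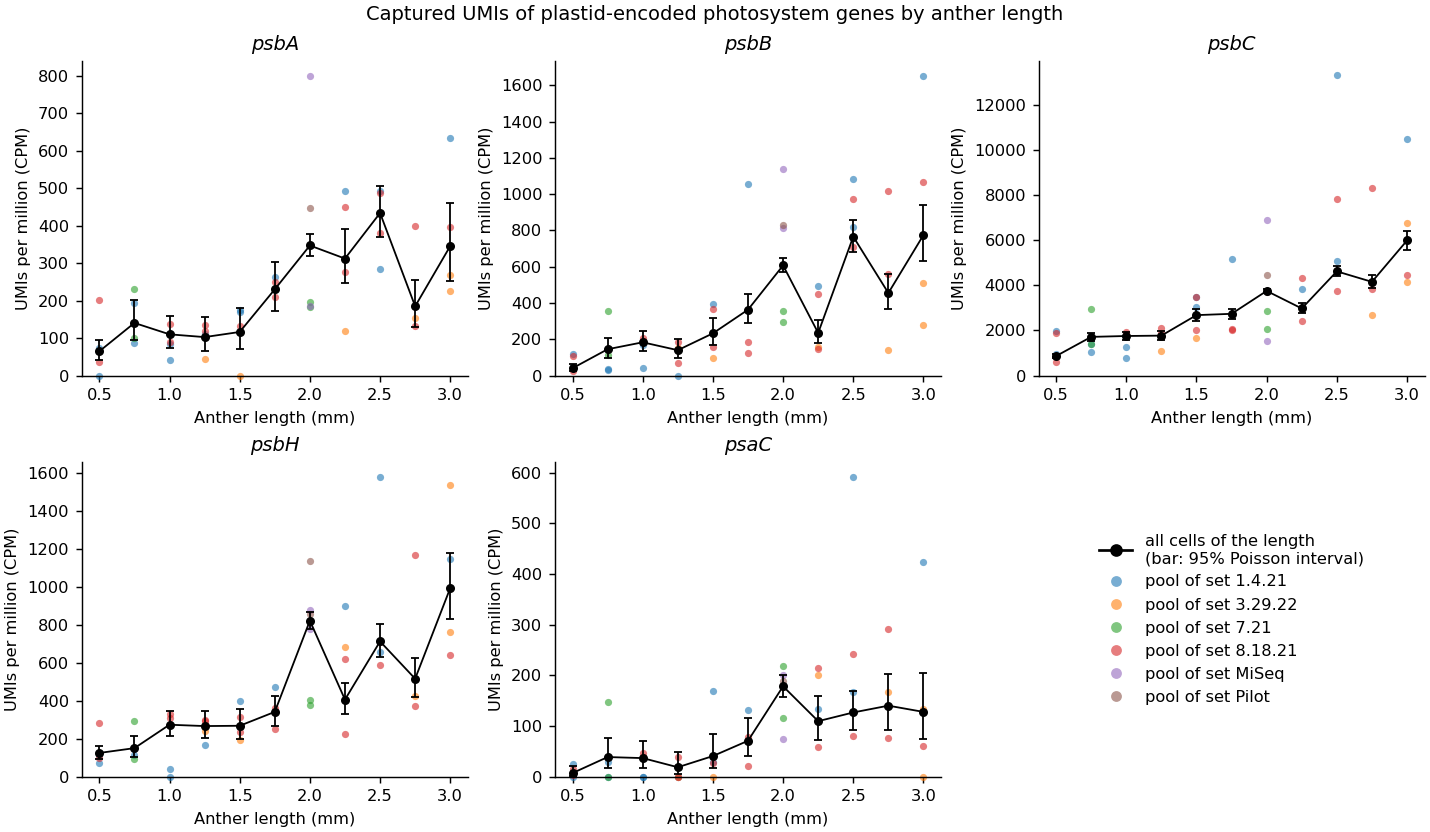
Level of each gene (CPM, linear axes starting at 0) against anther length (mm). Black points are sums over all analysed cells of a length with 95% Poisson intervals, and coloured points are pools of at least 8 cells by set; psbC runs from 868.3 CPM at 0.5 mm to 5988 CPM at 3.0 mm, and the pools of a length lie on both sides of its black point.

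The pools, smaller sums of cells, spread widely. psbH had 373.4 to 1576 CPM in the 11 pools of the 3 longest lengths (median 709.9), against 0 to 329.6 CPM in the 12 pools of the 3 shortest (median 116.6), with no overlap. psbC had 2692 to 13300.5 CPM in the long pools (median 5062) and 606.8 to 2964 CPM in the short ones (median 1401), overlapping only at the edge. For psbA, psbB and psaC the ranges overlapped further, with psaC at 0 to 591.1 CPM in the long pools and 0 to 147.1 CPM in the short ones. How many of all genes had pool ranges without overlap was not counted.

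The direction was the same in both sets that cover most lengths. Within set 1.4.21, where 15.6% of the 1042 genes tested rose, psbA, psbB, psbC and psbH rose with slopes of 1.57, 2.40, 1.60 and 1.98, and psaC had too few UMIs to be tested. Within set 8.18.21, where 10.1% of 4073 genes rose, all 5 rose, with slopes of 0.94 (psbH) to 1.67 (psbB). The summed level of the 5 genes at 3.0 mm still differed between sets: set 1.4.21 had 14352 CPM, set 3.29.22 had 7344 CPM and set 8.18.21 had 6036 CPM. RBCS plus CAB1, nuclear genes for the small subunit of Rubisco and a chlorophyll a/b binding protein, stood at 6689, 4814 and 2322 CPM in the same 3 sums. With set as a covariate, where 18.7% of 5964 genes rose, all 5 rose with slopes of 1.30 (psbC) to 1.78 (psaC).

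Not all plastid transcripts moved in this way. UMIs of 23 rows whose symbols lie only on the plastid genome made up 1.32% of all UMIs at 0.5 mm, 2.80% at 3.0 mm and 1.57% at 2.25 mm. Within those plastid UMIs the 5 genes were 8.39% at 0.5 mm (exact 95% interval 7.67 to 9.15), 15.2% at 1.5 mm, 21.1% at 2.0 mm and 29.4% at 3.0 mm (28.0 to 30.9). Of 14 other plastid-encoded genes tested, 5 rose and 0 fell, with a median slope of 0.46 against 1.33 for the 5 photosystem genes. The 4 most abundant of the 14 were cemA, of the plastid envelope, which rose (0.84, SE 0.15), and clpP, rpoB and rpoC2, a protease subunit and RNA polymerase subunits, which did not pass (-0.05, -0.17 and -0.22). The 6 plastid ribosomal protein genes had slopes of 0.02 to 0.38 and adjusted p of 0.147 to 0.959 by edgeR, and did not pass. Of the 25 rows made up of the 5 genes, the 14 and the 6, 23 have symbols that lie only on the plastid genome. One that does not is rps3, among the 6, which is also a mitochondrial gene symbol. The nuclear photosynthesis list, formed by gene symbols alone, had 5 of 5 tested genes rising. These lists are given for their counts, and the difference between lists was not tested.

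The second comparison set the 5 genes against the RBCS plus CAB1 level of the cell. Cells with at least 3 UMIs of RBCS and CAB1 together and a level of at least 2000 CPM of the pair are called RBCS+CAB1-high. They were 18.8% of the 1658 cells, and of the 1347 other cells 1021 had 0 UMIs of either gene. The class is a range on a scale, not a cell type: 5.85% of the cells lay less than 2 times above the 2000 CPM, 7.66% lay at 1000 to 2000 CPM, and 21 cells above 2000 CPM had under 3 UMIs. The genes of the nuclear photosynthesis list that did not set the class were higher in it in 4 of 5 cases tested (median log2 difference 3.79). PSAH, a nuclear subunit of photosystem I, was at 619.8 CPM in RBCS+CAB1-high cells and 34.3 CPM in the other cells, and PSBQ1, a nuclear subunit of photosystem II, at 1027 and 75.3 CPM. The exception, FDX3, a ferredoxin listed by its symbol alone, was at 76.1 CPM in RBCS+CAB1-high cells and 105.8 CPM in the other cells (-0.44, adjusted p = 0.249 by edgeR). C2, a chalcone synthase of flavonoid synthesis, was at 442.1 CPM in RBCS+CAB1-high cells and 1466 CPM in the other cells. RAD51B (meiotic) was at 4.01 CPM (3 UMIs) in RBCS+CAB1-high cells and 14.5 CPM (46 UMIs) in the other cells, and CR4 (epidermal) at 12.0 CPM (9 UMIs) and 12.9 CPM (41 UMIs). The other markers fixed for germinal, epidermal and tapetal cells were not analysed here. The part of these other transcripts in the results was not tested.

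All 5 genes were higher in RBCS+CAB1-high cells than in the other cells of the same length, in 10 of 10 lengths that had at least 5 cells of both classes (0.75 to 3.0 mm). Together they stood at 13691 CPM in RBCS+CAB1-high cells (95% interval 13428 to 13959) and 2310 CPM in the other cells (2258 to 2364). The median UMI count per cell was 1506 and 1293. In places, mostly at short lengths, the order of the classes rested on few UMIs. In RBCS+CAB1-high cells psaC had 1 UMI at 0.75 mm, 2 at 1.25 mm, 3 at 1.5 mm, 6 at 1.75 mm and 13 at 2.75 mm. In the same class psbA had 4 at 0.75 mm, 3 at 1.0 mm and 9 at 1.5 mm. psbB had 3 at 0.75 mm and 7 at 1.0 mm, and psbH had 4 at 0.75 mm. In each of these cases the 95% Poisson intervals of the classes overlapped. How many of all genes were higher at every length was not counted.

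psbA ranged over the 10 lengths from 207.3 to 869.9 CPM in RBCS+CAB1-high cells (median 524.5), against 68.7 to 274.5 CPM in the other cells (median 128.2). psbB had 297.6 to 1715 CPM (median 999) in RBCS+CAB1-high cells and 72.9 to 327.4 CPM (median 145.7) in the other cells. psbC had 4663 to 12864 CPM (median 7901) in RBCS+CAB1-high cells and 897 to 2078 CPM (median 1516) in the other cells. The ranges of psbC did not overlap between the classes, and those of psbA and psbB overlapped at their edges. The share of all genes with such separate ranges was not counted.

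psbH had 396.8 to 2352 CPM (median 1026) in RBCS+CAB1-high cells and 137.7 to 433.8 CPM (median 201.1) in the other cells. psaC had 81.2 to 479.6 CPM (median 228.6) in RBCS+CAB1-high cells and 10.6 to 104.8 CPM (median 38.8) in the other cells. Both pairs of ranges overlapped narrowly, although within every length compared the RBCS+CAB1-high cells were above the rest. For psaC this rested on as little as 1 UMI (0.75 mm).

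With length as a factor, the log2 differences were 2.20 for psbA (SE 0.24), 2.73 for psbB (SE 0.26), 2.47 for psbC (SE 0.31), 2.43 for psbH (SE 0.25) and 2.51 for psaC (SE 0.27). The adjusted p was between 2.91e-24 for psbB and 5.22e-14 for psbC by edgeR's quasi-likelihood test. The fit had 20 sums, 1 per length and class, with their spread estimated jointly over genes. These p-values do not measure scatter between plants. Of the 6417 genes tested 12.2% (781) were higher in RBCS+CAB1-high cells, 1112 were lower, and the median difference was -0.34. Scaled by library size alone 651 were higher and 2914 lower with a median of -0.70, and the 5 differences still passed. The other plastid genes were higher too: 14 of 14 other plastid-encoded genes (median 1.58) and 6 of 6 plastid ribosomal protein genes (median 1.38). The 4 most abundant of the 14 had log2 differences of 1.96 (cemA), 1.53 (rpoC2), 1.42 (rpoB) and 0.79 (clpP). Without sets MiSeq and Pilot the differences of the 5 photosystem genes were 2.25 to 2.79, and without the clusters with recurring wells 2.20 to 2.96.

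**Figure D2:**
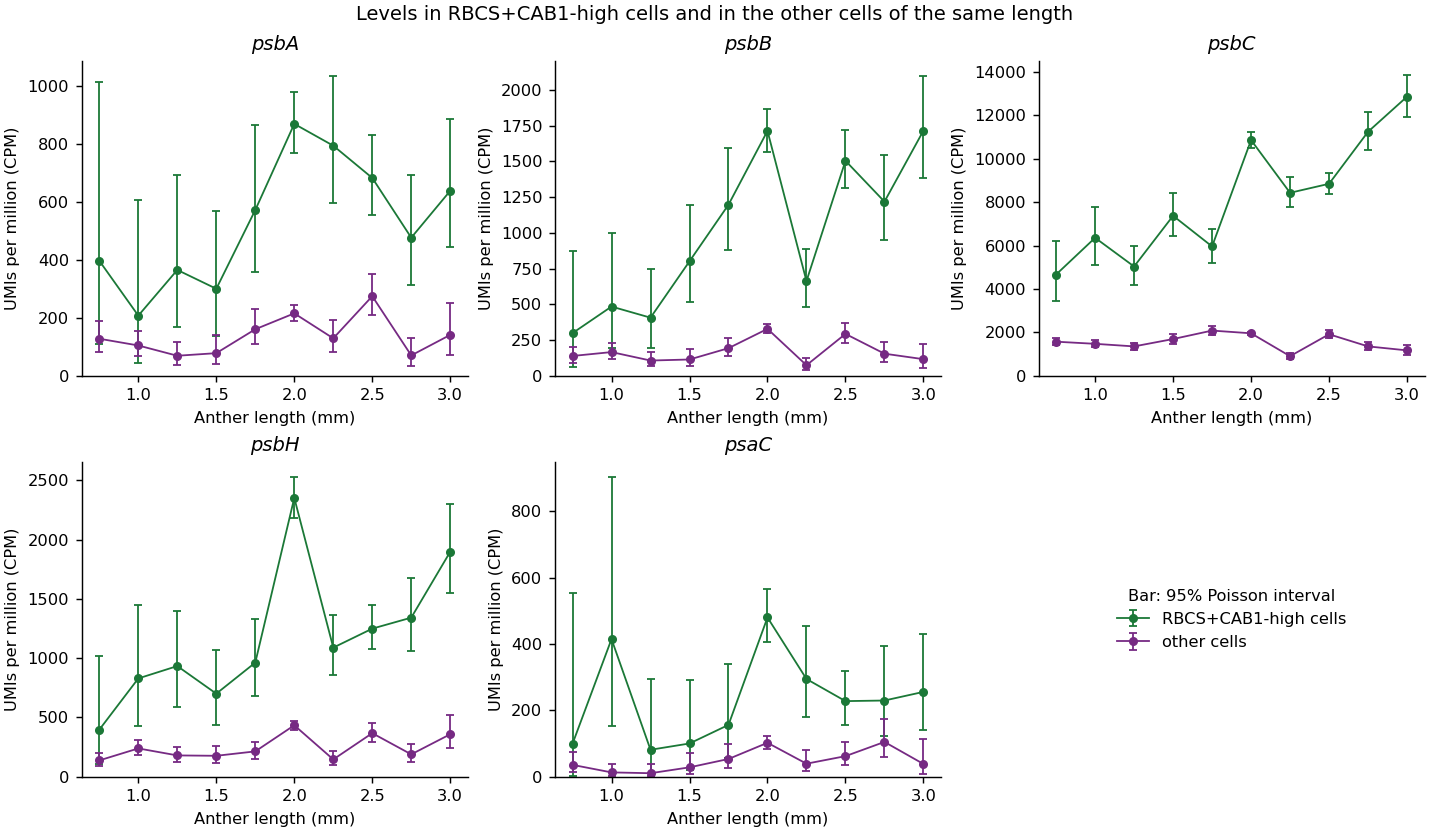
Level of each gene (CPM, linear axes starting at 0) against anther length (mm) in RBCS+CAB1-high cells (green) and the other cells (purple), with 95% Poisson intervals. The green point is above the purple one at all 10 lengths for every gene, and psbC ranges from 4663 to 12864 CPM in RBCS+CAB1-high cells and from 897 to 2078 CPM in the other cells.

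Single cells showed the same division with an overlap. The summed level of the 5 genes had a median of 11556 CPM per RBCS+CAB1-high cell, and its 10th and 90th percentiles were 4170.4 and 23788 CPM. In the other cells the median was 1396 CPM and those percentiles were 0 and 5198 CPM. With each cell thinned to 500 UMIs, 94.9% of RBCS+CAB1-high cells had a UMI of at least 1 of the 5 genes (exact 95% interval 91.8 to 97.03), 51.2% of the other cells did (48.5 to 53.9) and 47.4% of the cells with 0 RBCS and CAB1 UMIs (44.3 to 50.5). Before thinning the shares were 99.04%, 79.3% and 75.2%. For psbC alone the thinned shares were 92.0%, 42.1% and 37.7%, and for psaC 12.9%, 2.90% and 2.06%. Low levels outside RBCS+CAB1-high cells can include free RNA, whose part was not tested, so these shares are not counts of cells that express the genes.

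The level was graded below the threshold and, in sums over cells, depended on the set above it. Cells with 0 RBCS and CAB1 UMIs had 1573 CPM of the 5 genes, and cells with some but under 2000 CPM of them had 3449 CPM. Among RBCS+CAB1-high cells the level was 13838 CPM where RBCS plus CAB1 was at 2000 to 5000 CPM, 13595 CPM where it was at 5000 to 10000 CPM and 13529 CPM where it was higher. Without sets MiSeq and Pilot these 3 levels were 8622, 12842 and 13529 CPM. The median over single cells was not flat with all sets included either, at 8988, 11574 and 12900.4 CPM over the same 3 ranges.

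Thinned to 500 UMIs, cells with 0 RBCS and CAB1 UMIs had 1.11 UMIs of the 5 genes on average. Cells with 1 had 3.29, cells with 2 had 4.92, cells with 3 or 4 had 6.92 and cells with 5 and over had 6.62. The SD over cells was between 2.13 and 4.49 UMIs.

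**Figure D3:**
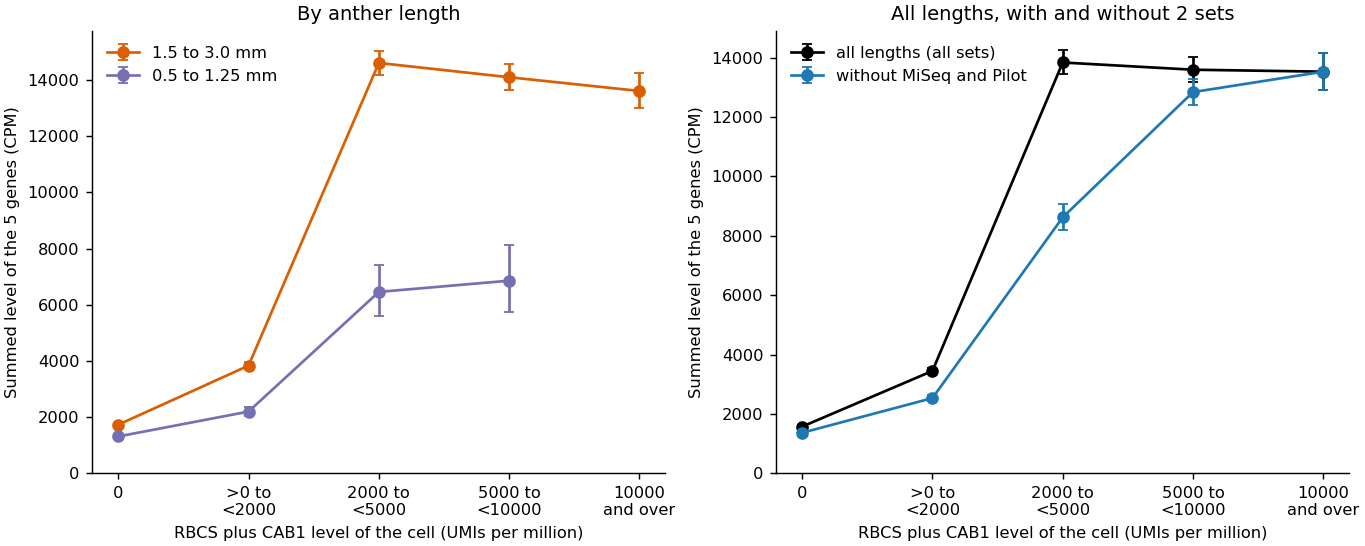
Summed level of the 5 genes (CPM, 95% Poisson intervals) by the RBCS plus CAB1 level of the cell (CPM, 5 ranges), for 1.5 to 3.0 mm and 0.5 to 1.25 mm anthers on the left and for all sets and without sets MiSeq and Pilot on the right. At 2000 to 5000 CPM of RBCS plus CAB1 the level is 14612 CPM in the longer and 6460 CPM in the shorter anthers, and the top range is not drawn for the shorter anthers, which had too few such cells.

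At 2.0 mm, where 4 sets meet, the 5 genes were higher in RBCS+CAB1-high cells in every set, but sets differed within each class. RBCS+CAB1-high cells had 16176 CPM in set 1.4.21 (7 cells), 9774 CPM in set 7.21 (36 cells), 19662 CPM in set Pilot (25 cells) and 24361 CPM in set MiSeq (2 cells). The other cells had 1511, 1493, 3375 and 6696 CPM in those sets. Set MiSeq thus had the highest level of the 5 genes and, at 233.8 CPM over all its cells, the lowest of RBCS plus CAB1.

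The third comparison asked whether levels changed with length inside each class, apart from the share of RBCS+CAB1-high cells. That share was 0.813% of the cells at 0.5 mm (1 cell), 7.80% at 1.0 mm, 19.3% at 2.0 mm and 42.7% at 3.0 mm (exact 95% interval 32.3 to 53.6). RBCS+CAB1-high cells held 2.39% of the UMIs of the 5 genes at 0.5 mm, 20.8% at 1.0 mm, 57.6% at 2.0 mm and 87.0% at 3.0 mm (84.9 to 89.0), and 41.2% of all UMIs at 3.0 mm. The pair that sets the class also rose with length inside it: RBCS had a slope of 1.25 (SE 0.18, adjusted p = 0.000289 by edgeR) and CAB1 0.59 (SE 0.14, adjusted p = 0.00936), with a summed level of 4762 CPM at 0.75 mm against 10401 CPM at 3.0 mm. In the other cells RBCS rose as well (1.12, SE 0.22, adjusted p = 0.00205 by edgeR), and CAB1 had 0.41 (adjusted p = 0.0700). The part of this in the slopes of the 5 genes was not tested.

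**Figure D4:**
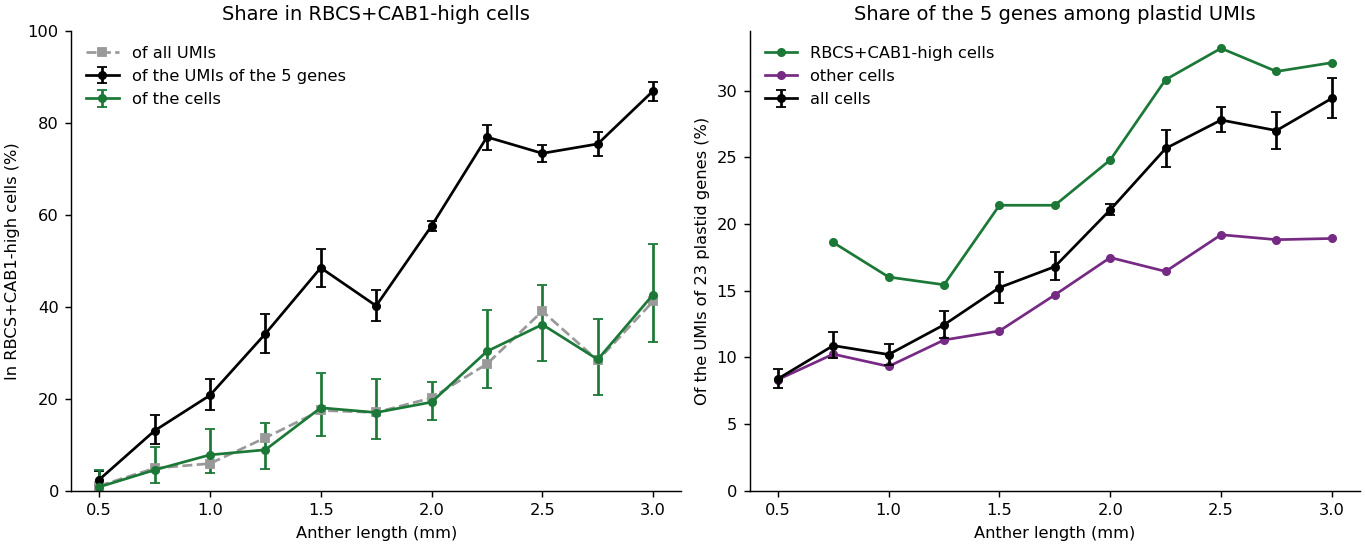
Left, the percentage of cells, of all UMIs and of the UMIs of the 5 genes that lay in RBCS+CAB1-high cells, against anther length (mm). Right, the percentage of the UMIs of 23 plastid genes that belonged to the 5 genes, in RBCS+CAB1-high cells, the other cells and all cells; bars are exact 95% binomial intervals, and the share in all cells is 8.39% at 0.5 mm and 29.4% at 3.0 mm.

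Within RBCS+CAB1-high cells (10 lengths, 639 genes tested, 14.9% rising) 3 of the 5 genes rose. psbB had a slope of 1.18 (SE 0.28, adjusted p = 0.00928 by edgeR), psbC 0.87 (SE 0.17, adjusted p = 0.00253) and psbH 0.94 (SE 0.27, adjusted p = 0.0221). psbA (0.79, SE 0.28, adjusted p = 0.0513 by edgeR) and psaC (0.49, SE 0.38, adjusted p = 0.363) did not pass. psbA lay close to the threshold: it passed without sets MiSeq and Pilot (0.78, adjusted p = 0.0186), without the clusters with recurring wells (0.79), with the class from 2 UMIs and 1000 CPM (0.96), with the scale taken from rows that are not plastid-encoded (0.80), and without 2.0 mm (0.73) or 2.75 mm (0.93), with adjusted p of 0.00545 to 0.356 over all its alternatives by edgeR. The call of psbH was lost without 0.75 mm (slope 0.76), 1.0 mm (0.98), 1.25 mm (0.94), 1.5 mm (0.90) or 3.0 mm (0.79), and by library size alone, which put the median slope at -0.44 with 6.26% of the genes up and 28.8% down, against 0.02 with 14.9% up and 9.08% down. psbB and psbC passed in every refit that tested them. Of 13 other plastid-encoded genes tested in these cells 2 rose, cemA (0.81, SE 0.16) and atpI of the ATP synthase (0.73, SE 0.21).

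Within the other cells (11 lengths, 4800 genes tested, 14.2% rising) psaC (1.27, SE 0.33, adjusted p = 0.0104 by edgeR) and psbH (0.65, SE 0.20, adjusted p = 0.0269) rose. The slope of psaC rested on few UMIs here, with 3 at 0.5 mm and 3 at 3.0 mm. It had no more than 15 at any length other than 2.0 mm, which gave most of them. psbA (0.63, SE 0.24, adjusted p = 0.0665), psbB (0.64, SE 0.29, adjusted p = 0.118) and psbC (0.23, SE 0.19, adjusted p = 0.405) did not pass the edgeR test. With the class from 5000 CPM psbA (0.82) and psbB (0.94) passed as well, and psbA also without 2.75 mm (0.80). The slope of psaC was 1.06 to 1.52 in the 14 refits that tested it, and its call was lost only without 0.5 mm (1.06, adjusted p = 0.0685 by edgeR). The call of psbH was lost without 0.5 mm (0.61) too, and also without 0.75 mm (0.61), 2.5 mm (0.60) or 3.0 mm (0.65) and by library size alone (0.50). psbH passed neither in cells with 0 RBCS and CAB1 UMIs (0.36) nor without the clusters with recurring wells (0.65), and psaC was not among the genes tested in those refits. Scaled by library size alone 467 genes rose and 954 fell in these cells, with a median slope of -0.13, against 683 and 561 and 0.02.

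The slopes of psbB and psbC were steeper in RBCS+CAB1-high cells than in the other cells, by 1.34 (SE 0.30, adjusted p = 0.00191) and 1.30 log2 units per mm (SE 0.24, adjusted p = 3.27e-05), in edgeR's quasi-likelihood test of the class by length interaction. Of 6417 genes 1.57% had a steeper and 10 genes a less steep slope there, and the median difference was 0.34. The p-values again do not measure scatter between plants. psbA (0.80, SE 0.32), psbH (0.84, SE 0.28) and psaC (-0.07, SE 0.35) did not pass. The slopes fitted in each class alone, RBCS+CAB1-high cells first, lay closer together for psbB (1.18 and 0.64) and psbC (0.87 and 0.23). For psaC they lay further apart (0.49 and 1.27). The joint and separate fits differ in scaling and in the lengths used, and the part of each was not tested. Without the clusters with recurring wells psbB differed by 2.05 and psbC by 1.49, and psbH passed as well (1.11, adjusted p = 0.0159 by edgeR, over its alternatives 0.00948 to 0.865). The 2 calls depended on the scaling: by library size alone, with a median of -0.19, 9 genes up and 17 down, psbB had 0.78 (adjusted p = 0.324 by edgeR) and psbC 0.71 (adjusted p = 0.116). That of psbB was also lost without 1.0 mm (1.04, adjusted p = 0.165 by edgeR, over the refits without 1 length 0.000705 to 0.165). Other plastid genes had a steeper slope as well: 7 of 14 other plastid-encoded genes (median 0.96) and 5 of 6 plastid ribosomal protein genes (median 1.06).

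The share of the 5 genes among plastid UMIs was higher in RBCS+CAB1-high cells at every length from 0.75 mm on, and higher in long anthers in both classes. It was 18.6% at 0.75 mm, 24.8% at 2.0 mm and 32.1% at 3.0 mm in RBCS+CAB1-high cells. In the other cells it was 10.2%, 17.5% and 18.9% at the same lengths. These shares are descriptions with no test.

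The genes most like the summed level of the 5 were sought over the 45 pools among 1754 genes with a mean of at least 100 CPM, by Pearson's correlation of log2(CPM + 20). Pools share sets and differ in depth and length, so r describes likeness only. The highest values were those of Zm00001d019605 (r = 0.932) and Zm00001d006402 (r = 0.862), IDs without a name in the reference used. The named gene closest to the 5 was cemA (r = 0.817, rank 7), followed among the lists by RBCS (r = 0.793), atpI (0.762) and PSAH (0.731). The plastid polymerase genes rpoB and rpoC2 were at 0.07 and 0.03. The least alike were Zm00001d039091 (r = -0.858) and HMGIY2, an HMG-I/Y chromatin protein (r = -0.82).

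The positions of the genes on the plastid genome bear on what a UMI of each row counts. In the RefSeq annotation psbC lies next to psbD, psbH between psbN and petB, psbB between clpP and psbT, and psaC between ndhD and ndhE. Many plastid genes are transcribed in groups, but adjacent genes need not belong to the same group. The order here is by position alone, and which neighbours share a transcript was not tested. Of these neighbours clpP and ndhE were counted in rows of their own. How plastid RNA was captured by poly(A) priming, and how reads that also match nuclear copies of plastid DNA were counted, was not tested, so all values are of captured UMIs assigned to these rows and levels were not compared between genes.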

How the data were processed

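Single cells of W23 anthers were profiled with CEL-Seq2 after fixation, digestion and sorting, per the labels' protocols. The authors deposited 1 table of raw UMI counts (whole numbers, not normalised). Per the submitters' processing notes, HISAT2 and B73 RefGen_v4 were used. The sources used here do not give the counting tool, its strand setting or its filters. UMIs remove amplification, and intervals cover counting error only.

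Cells with at least 500 UMIs were kept, and no doublet caller was run. Counts were summed per length, per length and class (at least 5 cells each), per set and per pool (at least 8 cells). edgeR 4.0.16 in R 4.3.3 (TMM, filterByExpr, quasi-likelihood F-test, Benjamini-Hochberg, threshold 0.05) was fitted over all rows, leaving RBCS and CAB1 out of the fits that compare the classes but not of the slopes within a class. Standard errors come from the estimate and its F statistic. CPM is relative to summed UMIs, without TMM factors. Intervals are exact Poisson or Clopper-Pearson at 95%. The scripts were tested on simulated data. DESeq2 1.42.0 was an alternative.

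Clusters came from scanpy 1.11.5 (2000 variable genes, 20 components, 15 neighbours, Leiden resolution 1); those whose same-well pairs exceeded 2 times the expected number, with at least 20 pairs, were called recurring. Because the RefSeq table is of another assembly (Zm-B73-REFERENCE-NAM-5.0), it served for names and neighbours only. Every psa and psb row is named; of each list the 4 most abundant, and of like genes the 8 highest and 4 lowest, could be named. Genes outside that rule (atpI, FDX3, RAD51B, CR4, C2) are marker or list genes. The members and lists were chosen with earlier results of these data known.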

Additional observations from a re-analysis of the deposited data

Results flagged for a closer look

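Groups of 4 to 10 pools were formed (5 genes over the lengths with that many pools), 45 in all. In each group the highest or lowest pool was compared with the others by Dixon's criterion. Chance alone meets it in about 1 in 20 groups of normally spread values. That rate need not hold for low counts or pools of unlike depth. Here 3 pools met it. psaC stood at 39.6 CPM (4 UMIs, 54 cells) in number 2 of set 8.18.21 at 1.25 mm, while the other pools of that length had 0 UMIs. With all others at 0, any count meets the criterion. psaC stood at 170 CPM (3 UMIs, 10 cells) in number 6 of set 1.4.21 at 1.5 mm, against 0 to 39.2 CPM in the other pools. psbH stood at 1576 CPM (16 UMIs, 8 cells) in number 2 of set 1.4.21 at 2.5 mm, against 590.4 to 709.9 CPM in the other pools. The slope with length differed between classes of cells for psbB, by 1.34 log2 units per mm (RBCS+CAB1-high minus other cells), and for psbC, by 1.30. Both passed edgeR's test of the interaction but not when scaled by library size alone. For both genes the slopes fitted in each class alone lay closer together than these differences.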

How the results depend on the processing

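The direction and call of all 5 genes over length and between classes held in every alternative in which the gene was tested, with 1 exception. Under a replicate block of set plus number (45 pools; 3.39% of 4397 genes up, 0.66% down) 3 of 5 rose: psbA (1.16), psbC (0.98) and psbH (1.37), while psaC had 1.40 (adjusted p = 0.0575 by edgeR) and psbB 0.84 (0.182). Whether the numbers pair pools is unclear: deviations of pools of the same set and number correlated by -0.17 to 0.46 (40 pairs, 23 of them over 0.1). With the pool as a replicate block the class differences were 2.32 to 2.70 and all 5 passed. Without each length in turn the count was 5 over length and 5 between classes, 1 to 2 for the slope difference (1 without 1.0 mm), 2 to 4 within RBCS+CAB1-high cells and 0 to 3 within the other cells (0 without 0.5 mm, 1 without 0.75, 1.75, 2.5 or 3.0 mm). The slope difference counted 0 genes by library size alone. Within the other cells the count was 0 with the class from 2 UMIs and 1000 CPM, 4 with it from 5000 CPM, 0 without recurring wells, 0 in cells with 0 RBCS and CAB1 UMIs and 1 by library size alone, against 2; psaC was too low to be tested in the 3 that gave 0 and without 1.75 mm. The slope difference of psaC, -0.07, was 0.20 with the class from 5000 CPM and -0.45 to 0.26 without single lengths (0.16 without 1.0 mm, 0.26 without 2.75 mm). The cause was not tested. Over all genes, with 16.0% up and 14.2% down over length and 12.2% up and 17.3% down between classes, thinning to 500 UMIs gave 21.9% and 16.3% of 1299 genes over length (psaC not tested) and 21.6% and 31.3% of 900 genes between classes, no filter 6.72% and 5.17% of 22173 and 4.49% and 12.0% of 22167, and the pool block 20.9% and 54.6% of 1117 between classes. The alternatives without recurring wells, for the classes without sets MiSeq and Pilot, and with cells of 0 RBCS and CAB1 UMIs for the slopes were chosen after seeing the data. Depth limits psaC most.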

Other observations

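Of the 1021 cells with 0 UMIs of RBCS and CAB1, 18 had a summed level of the 5 genes at or above the median of RBCS+CAB1-high cells (11556 CPM), and 10 of the 18 were from sets MiSeq or Pilot. Among RBCS+CAB1-high cells 3 had 0 UMIs of the 5 genes, and among the 1347 other cells 20.7% had none. Anthers of 2.0 mm gave 61.7% of the UMIs of psaC, 57.0% of psbH, 53.8% of psbB, 51.1% of psbA and 45.7% of psbC, and these differences were not tested. psaC made up 0.652% of the UMIs of the 5 genes at 0.5 mm, 3.13% at 2.0 mm and 1.55% at 3.0 mm.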
